A study of Homo sapiens with 12 samples.

Results

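The genes described here are 8 angiogenic factors and co-receptors: the VEGF family ligands VEGFA, VEGFB, VEGFC and PGF (placental growth factor), the neuropilins NRP1 and NRP2, the secreted factor EGFL7 and the angiopoietin-like factor ANGPTL4. They were taken by symbol from a table of 24331 features, and each symbol was found in 1 feature. All 8 had a mean FPKM of at least 1 and so were among the 11256 features tested. RNA-sequencing was done on MDA-MB-231 cells, a human triple-negative breast cancer cell line, that were either wild type (WT) or lacked the NFAT and NF-κB sites of the core-regulatory element in the ETS1 promoter (ΔCRE, named KO in the sample labels, made with CRISPR/Cas9). Both genotypes were sampled before stimulation (0 h) and after 6 and 24 h of PMA/Ionomycin, a phorbol ester with a calcium ionophore, with 2 replicates per genotype and time. In hg19 the features lie at chr6:43737946-43754223 (VEGFA), chr11:64002056-64006736 (VEGFB), chr4:177604691-177713895 (VEGFC), chr14:75408533-75422467 (PGF), chr10:33466419-33623833 (NRP1), chr2:206547224-206662857 (NRP2), chr9:139553308-139567130 (EGFL7) and chr19:8429011-8439257 (ANGPTL4). In the annotation a lncRNA on the opposite strand overlaps VEGFA, VEGFC, NRP1, NRP2, EGFL7 and the last bases of ANGPTL4, and since the sources do not say whether strand was used in the counting, reads of such pairs may be shared. The number of clones behind the ΔCRE cells is not given in the sources used here, so an effect of the deletion and a difference between clones cannot be told apart. These are bulk samples, so fewer cells with a transcript and less of it per cell cannot be told apart either.

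VEGF family ligands are secreted proteins that bind receptor tyrosine kinases on endothelial cells. VEGFA drives sprouting of blood vessels through KDR (VEGFR2) and also binds FLT1 (VEGFR1), as do VEGFB and PGF. VEGFC acts on lymphatic vessels through FLT4 (VEGFR3). NRP1 and NRP2 are co-receptors shared by VEGF ligands and class 3 semaphorins, the latter acting with plexins. EGFL7 is a secreted protein best known from endothelial cells, and its gene hosts the microRNA miR-126. ANGPTL4 is a secreted inhibitor of lipoprotein lipase whose gene responds to PPAR factors and to hypoxia.

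FPKM corrects the number of fragments for transcript length and library size, so levels can be compared between genes, but the depth of the libraries is unknown. ETS1 itself was first checked. In WT cells ETS1 was at 24.0 and 23.7 FPKM at 0 h, 139.2 and 145.2 at 6 h and 36.2 and 39.7 at 24 h. In ΔCRE cells it was at 16.5 FPKM in replicate 2 at 0 h, 62.8 and 62.2 at 6 h and 29.3 and 30.7 at 24 h, below every WT library of the same time. The library labelled ΔCRE 0 h replicate 1 stood apart from the other 11 and is given separately throughout. Its FPKM values summed to 1423335, against 566255 to 651080 in the others, and 7 markers of gut epithelium summed to 7058 FPKM in it and to at most 0.318 in any other library. The fits below therefore hold 11 libraries, and the ΔCRE 0 h group is 1 library that is assumed to vary like the others. In the 11 libraries the mesenchymal marker VIM was between 1543 and 2539 FPKM. The hormone receptors ESR1 and PGR were at or near 0, while ERBB2, listed with them as low in this line, was at 9.68 to 15.4 FPKM. Luminal markers were mixed. KRT8 was at 269 to 513 FPKM, KRT18 at 347 to 550 and KRT19 at 32.5 to 106.5. EPCAM was at 2.02 to 3.38 FPKM and CDH1 at 0.0319 at most. Of 9 endothelial markers, 7 stayed under 1 FPKM in every library. The exceptions were ESAM, a junction protein, at 10.4 to 40.1 FPKM and PECAM1, which reached 1.04.

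The first question was at what level unstimulated WT cells carried each gene. NRP1 had the highest mean FPKM at 39.9 ± 0.881 (SD, n = 2), and NRP2 the lowest at 1.16 ± 0.155. PGF (23.8 ± 1.34) and VEGFB (22.7 ± 1.44) came next to NRP1, and their replicates overlapped. Below them stood EGFL7 (18.3 ± 2.41), VEGFA (14.0 ± 0.476), ANGPTL4 (8.58 ± 0.284) and VEGFC (5.95 ± 0.0979), and no neighbours in this part of the order overlapped. With 2 libraries per group the absence of overlap is a description. The receptors of the ligands were hardly detected: FLT1 was between 0 and 0.0544 FPKM, KDR between 0.0118 and 0.133 and FLT4 between 0 and 0.0511 over the 11 libraries. The cells thus held transcripts of ligands and of NRP1 with little of the receptor tyrosine kinases.

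**Figure D1:**
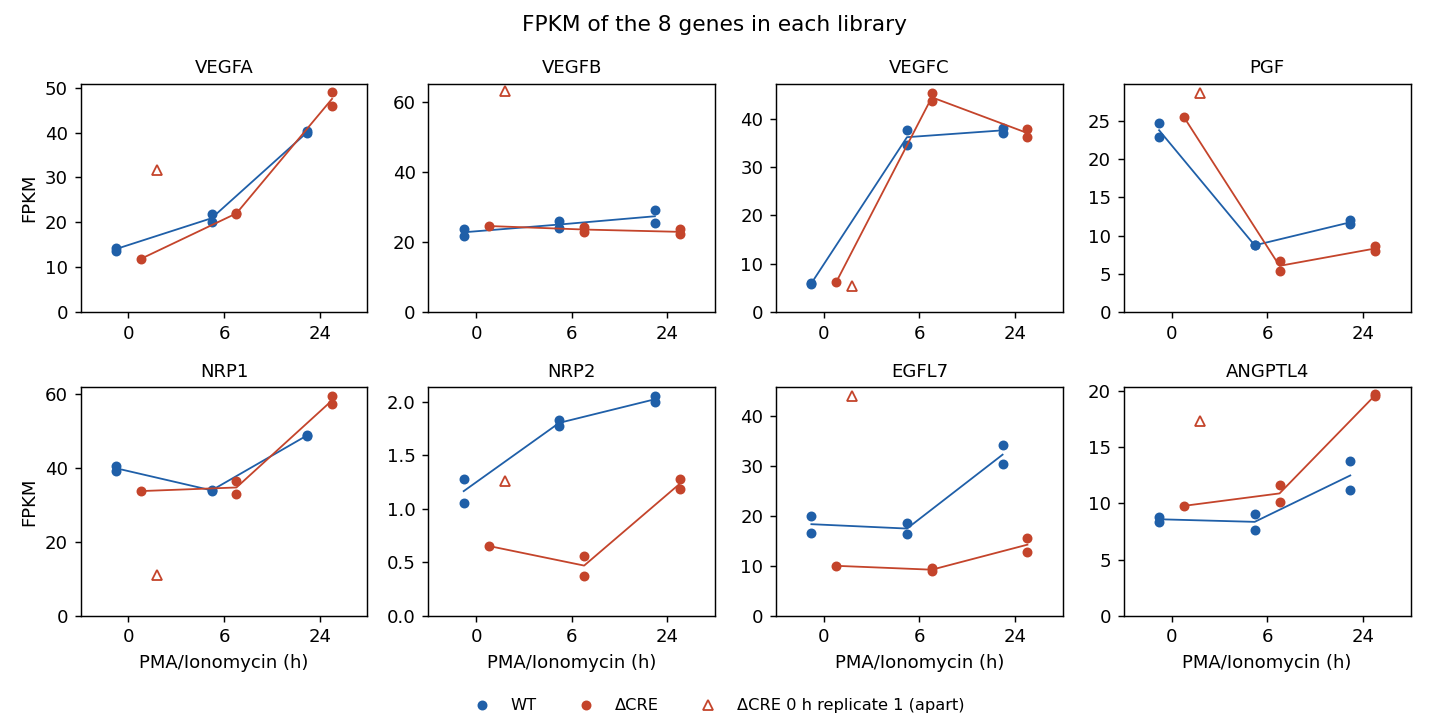
FPKM (y axis, a scale of its own per gene) of each gene in each library, by hours of PMA/Ionomycin (x axis, 3 time points drawn at equal spacing). Points are single libraries, lines join group means, and the open triangle is the library labelled ΔCRE 0 h replicate 1. Leaving that triangle aside, NRP2 and EGFL7 lay below WT in the ΔCRE libraries of each time point, and VEGFC and PGF moved in opposite directions with stimulation.

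Stimulation was then examined in WT cells, where each time point has 2 libraries. VEGFC rose most. It was at 6.01 and 5.88 FPKM at 0 h, 34.6 and 37.7 at 6 h and 38.1 and 37 at 24 h. The 0 h libraries thus lay far below all others, and the means at 6 and 24 h were 6.08 and 6.32 times that at 0 h. In limma, which gives differences of log2(FPKM + 1), the rise was 2.42 at 6 h (SE 0.0592, adjusted p = 2.01e-08, Benjamini-Hochberg) and 2.47 at 24 h (adjusted p = 3.14e-08). Only 78 of the 11256 features rose more than VEGFC at 6 h.

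PGF fell. Its FPKM was 22.8 and 24.7 at 0 h, 8.74 and 8.72 at 6 h and 12 and 11.5 at 24 h, and the 3 time points did not overlap. Its log2 difference by limma was -1.35 at 6 h (SE 0.0925, adjusted p = 1.11e-05) and -0.96 at 24 h (adjusted p = 5.97e-05). PGF rose again by 0.39 from 6 to 24 h (adjusted p = 0.00895 by limma; 0.0554 without WT 24 h replicate 1).

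VEGFA rose at both steps. It was at 13.7 and 14.4 FPKM at 0 h, 21.8 and 20.0 at 6 h and 39.8 and 40.4 at 24 h, so that the 24 h mean was 2.85 times the 0 h mean. The log2 difference by limma was 0.54 at 6 h (SE 0.061, adjusted p = 1.93e-04) and 1.45 at 24 h (adjusted p = 6.74e-07). VEGFB moved little: it was at 23.7 and 21.7 FPKM at 0 h, 26.0 and 23.9 at 6 h and 29.1 and 25.5 at 24 h. The 6 and 24 h libraries overlapped and those of 0 h lay just below them, and the difference was 0.13 at 6 h (adjusted p = 0.238 by limma) and 0.25 at 24 h (adjusted p = 0.0303; 0.161 without WT 0 h replicate 2 and 0.204, with a difference of 0.16, without WT 24 h replicate 1).

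The makeup of the pool of these ligands changed with these shifts. VEGFD (listed as FIGF), at 7.48 and 7.84 FPKM in the WT 0 h libraries, is not part of this pool. VEGFA, VEGFB, VEGFC and PGF together summed to 66.3 and 66.7 FPKM in WT libraries of 0 h, 91.1 and 90.3 at 6 h and 119 and 114.3 at 24 h. PGF made up 34.5% and 37.1% of that sum at 0 h but 9.59% and 9.65% at 6 h, while VEGFC went from 9.07% and 8.81% to 37.9% and 41.8%. There was 0.263 and 0.238 of a VEGFC transcript per PGF transcript at 0 h, 3.96 and 4.33 at 6 h and 3.18 and 3.22 at 24 h, by FPKM. In ΔCRE cells the ratio was 0.243 in the 0 h library, 6.74 and 8.11 at 6 h and 4.20 and 4.73 at 24 h, above both WT libraries at 6 and at 24 h.

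**Figure D2:**
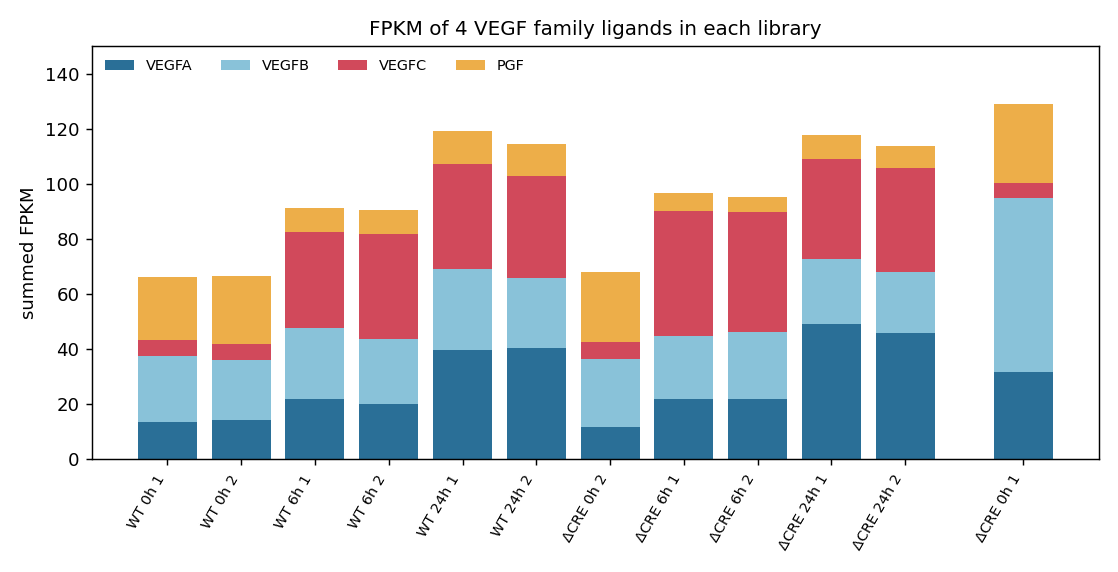
Stacked bars show the FPKM of VEGFA, VEGFB, VEGFC and PGF in each of the 12 libraries, so that the bar height is their sum (y axis, from 0). The sum went from 66.3 and 66.7 in the WT 0 h libraries to 119 and 114.3 at 24 h, and the PGF part shrank while the VEGFC part grew. The library labelled ΔCRE 0 h replicate 1 stands apart at the right.

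Among the co-receptors, NRP1 was at 40.5 and 39.3 FPKM at 0 h, 33.7 and 34.1 at 6 h and 48.7 and 48.9 at 24 h in WT cells. It was lowest at 6 h and highest at 24 h, with no overlap between times. Its log2 difference from 0 h by limma was -0.23 at 6 h (SE 0.0573, adjusted p = 0.0121; 0.0522 without WT 0 h replicate 1 and 0.0631 without WT 6 h replicate 1) and 0.28 at 24 h (adjusted p = 0.00324). NRP2, near the lower limit of the tested range, was at 1.05 and 1.27 FPKM at 0 h, 1.83 and 1.78 at 6 h and 2.0 and 2.05 at 24 h. It rose by 0.37 at 6 h (adjusted p = 0.0162 by limma; 0.0535 after rescaling to TPM and 0.0517 to 0.0689 without WT 0 h replicate 1 or either WT 6 h replicate) and by 0.48 at 24 h (adjusted p = 0.00376). For a gene this low the added 1 FPKM shrinks differences: with a pseudocount of 0.1 these were 0.59 and 0.75.

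EGFL7 and ANGPTL4 rose late. EGFL7 was at 20.0 and 16.6 FPKM at 0 h, 18.6 and 16.3 at 6 h and 34.1 and 30.3 at 24 h. Its 0 and 6 h libraries overlapped (difference -0.06, adjusted p = 0.691 by limma), and both 24 h libraries lay above them (0.79 over 0 h, SE 0.119, adjusted p = 7.13e-04). ANGPTL4 was at 8.78 and 8.38 FPKM at 0 h, 9.07 and 7.63 at 6 h and 13.8 and 11.2 at 24 h. It likewise overlapped between 0 and 6 h (difference -0.04, adjusted p = 0.801 by limma) and was 0.49 higher at 24 h (adjusted p = 0.00619).

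**Figure D3:**
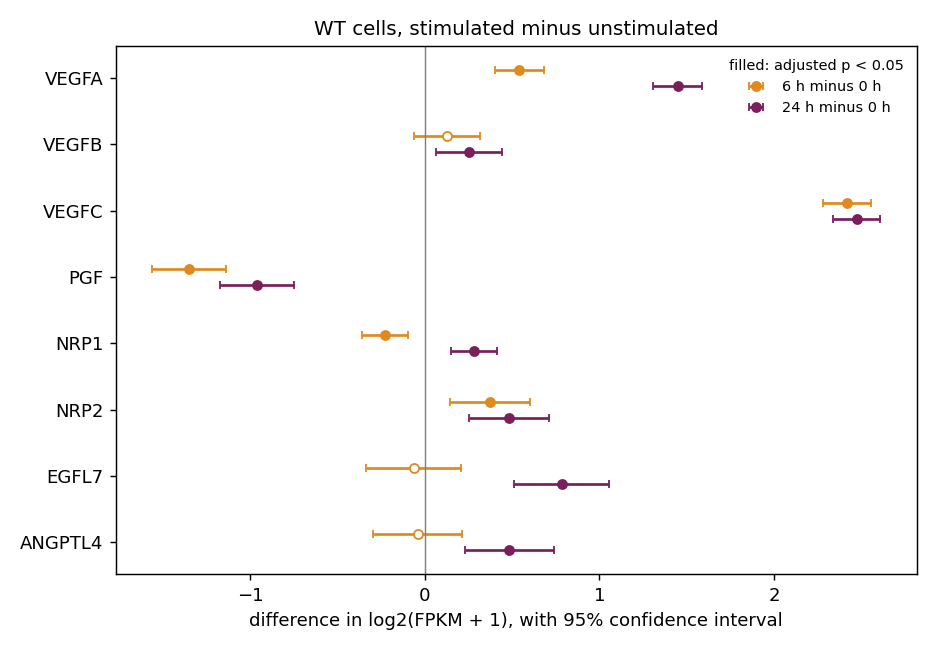
Differences in log2(FPKM + 1) between stimulated and unstimulated WT cells (x axis) for each gene, at 6 h and at 24 h minus 0 h, with 95% confidence intervals from limma; filled points have an adjusted p under 0.05. VEGFC (2.42 and 2.47) and PGF (-1.35 and -0.96) show the widest shifts at 6 h, and EGFL7 and ANGPTL4 pass at 24 h and not at 6 h.

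In all, 5 of the 8 genes passed the test in WT cells at 6 h against 0 h, 3 higher and 2 lower, where 44.4% of all tested features did (23.3% higher and 21.1% lower). At 24 h against 0 h all 8 passed, 7 higher and 1 lower, against 54.6% of all features, of which 26.5% were higher and 28.2% lower. The median difference of the 8 genes was 0.48 at 24 h, against -0.02 over all features. From 6 to 24 h, 5 genes passed in WT cells (46.8% of all features: 20.5% higher and 26.3% lower) and all 5 were higher. So large a share of the table passed that a call alone sets few genes apart. The places of VEGFC, PGF and VEGFA far out in the distribution over all features are shown in the histograms of all differences.

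**Figure D4:**
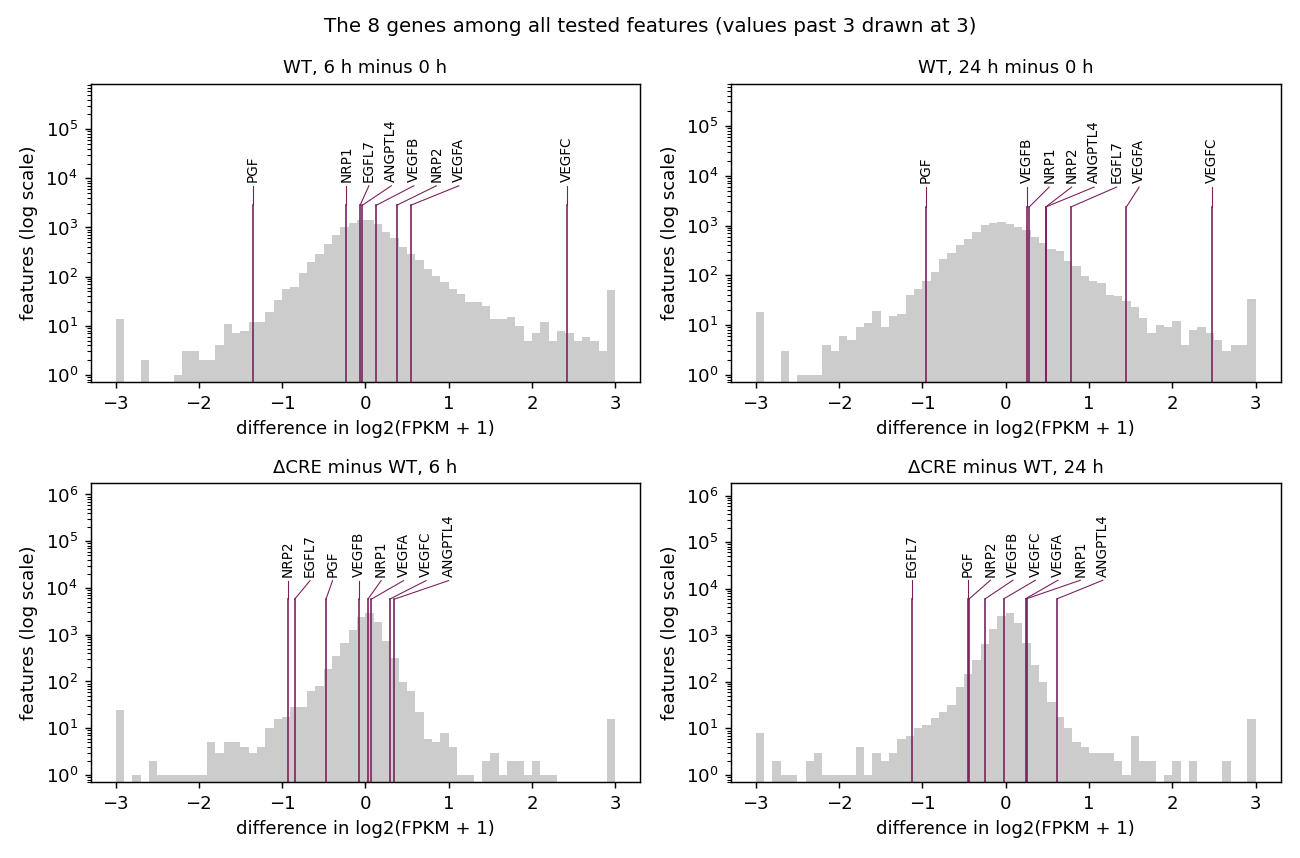
Histograms of the difference in log2(FPKM + 1) over the 11256 tested features for 4 comparisons (y axis: number of features, log scale), with values past 3 drawn at 3 and the 8 genes marked by lines. VEGFC (2.42) and PGF (-1.35) lie in the tails at 6 h in WT cells. EGFL7 and NRP2 lie in the lower tail of ΔCRE minus WT at 6 h, and EGFL7 at 24 h.

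The same step could be tested in ΔCRE cells between 6 and 24 h. There 7 of the 8 genes passed, 6 higher and 1 lower, against 49.6% of all features (22.1% higher and 27.5% lower). VEGFA (log2 difference 1.08), ANGPTL4 (0.80), NRP1 (0.73), NRP2 (0.61), EGFL7 (0.57) and PGF (0.41) rose by limma with adjusted p between 6.3e-06 and 0.00654, and VEGFC fell by 0.26 (adjusted p = 0.00727). The fall of VEGFC shrank to -0.16 after quantile normalization (adjusted p = 0.0674) or rescaling to TPM (adjusted p = 0.068), and the rise of PGF was 0.27 without ΔCRE 6 h replicate 2. For VEGFB the difference was -0.04 (95% confidence interval -0.23 to 0.15, adjusted p = 0.722).

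The second question was which of the genes differed between ΔCRE and WT cells at the same time point. At 6 h, 4 of the 8 genes passed (3 lower in ΔCRE cells and 1 higher), where 9.83% of all tested features did (6.22% lower and 3.62% higher). At 24 h, 5 passed (3 lower and 2 higher), where 6.33% of all features did (3.97% lower and 2.35% higher). The same 3 genes, EGFL7, NRP2 and PGF, were lower at both times. The median difference of the 8 genes was near 0 at 6 h (-0.03, against 0.01 over all features), since members lay on both sides, and -0.13 at 24 h (against 0.01). At 0 h, with 1 ΔCRE library, only EGFL7 passed, as lower, where 1.69% of features passed and 1.03% were lower, and 4 of the 8 genes had an unadjusted p under 0.05, as did 15.0% of all features. With all 12 libraries in the fit, whose ΔCRE 0 h replicates lie far apart, none of the 8 passed for genotype at any time, and 20 of all features did at 6 h and 17 at 24 h.

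EGFL7 was lower in ΔCRE cells at each time. At 6 h it was at 9.56 and 8.88 FPKM in ΔCRE cells and at 18.6 and 16.3 in WT cells, and at 24 h at 15.6 and 12.9 against 34.1 and 30.3. All 4 ΔCRE libraries thus lay below the lowest WT library of the experiment, and the ΔCRE mean was 52.9% of the WT mean at 6 h and 44.2% at 24 h. The log2 difference by limma was -0.85 (SE 0.119, adjusted p = 0.0039) at 6 h and -1.13 (SE 0.119, adjusted p = 0.00158) at 24 h. Before stimulation the ΔCRE library was at 9.999 FPKM, against 20.0 and 16.6 in WT cells (difference -0.81, adjusted p = 0.0363 by limma, but 0.0614 to 0.11 in 7 of 10 fits that left out 1 library each and 0.069 with no filter). The library labelled ΔCRE 0 h replicate 1 was at 43.9 FPKM, and with it the difference at 0 h was 0.21. At 24 h only 44 of 11256 features had a more negative difference from WT than EGFL7.

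The span of EGFL7 holds the gene of miR-126, and an opposite-strand lncRNA overlaps its start. Genes around EGFL7 were lower in ΔCRE cells as well. Of 78 tested features within 5 Mb on either side, 94.9% had a difference under 0 at 6 h and 92.3% at 24 h, 21 and 28 of them passed as lower, and their median was -0.25 and -0.32. The next gene, AGPAT2, an enzyme of phospholipid synthesis, was lower by -0.60 at 6 h (adjusted p = 0.0039 by limma) and -0.37 at 24 h (adjusted p = 0.0369). None of the 78 was as low as EGFL7 at any time. The part of this segment-wide shift in the EGFL7 difference was not tested. The 9 endothelial markers summed to 14.6 and 16.1 FPKM in ΔCRE and to 21.9 and 22.8 in WT cells at 6 h, nearly all of it ESAM, and at 24 h to 33.9 and 35.3 in ΔCRE and to 40.1 and 41.6 in WT cells. Endothelial CDH5 and VWF were at or near 0 (at most 0.448 and 0.304 FPKM), and the part of ESAM in the result was not tested.

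NRP2 showed its widest gap at 6 h. It was at 0.563 and 0.375 FPKM in ΔCRE cells and at 1.83 and 1.78 in WT cells, and at 24 h at 1.19 and 1.28 against 2.0 and 2.05. The groups did not overlap at either time, and the ΔCRE mean was 26.0% of the WT mean at 6 h and 61% at 24 h. With a mean of 1.28 FPKM over the 11 libraries, NRP2 passed the filter largely through WT libraries, all at 1.05 FPKM or more. The ΔCRE libraries of 6 h and replicate 2 of 0 h lay under 1 FPKM. The call at 6 h held with no filter. The log2 difference by limma was -0.93 (SE 0.1, adjusted p = 0.0012) at 6 h and -0.44 (adjusted p = 0.0394) at 24 h. With a pseudocount of 0.1 these were -1.76 (adjusted p = 0.00138) and -0.67 (adjusted p = 0.0923), and the call at 24 h was also lost in 9 of the other 17 fits of these libraries, with adjusted p up to 0.175 without WT 24 h replicate 1. At 0 h the ΔCRE library was at 0.653 FPKM, under 1.05 and 1.27 in WT cells (difference -0.39, adjusted p = 0.189 by limma). Unlike EGFL7, NRP2 had no neighbourhood that moved with it: 43 tested features within 5 Mb had a median of 0.05 at 6 h and none of them passed as lower.

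Because NRP2 and NRP1 did not move alike, the ratio of the co-receptors was compared between the genotypes as a description. There were 18.4 and 19.2 times as many FPKM of NRP1 as of NRP2 in the WT 6 h libraries and 64.5 and 88.0 times as many in the ΔCRE 6 h libraries. At 24 h the ratio was 24.4 and 23.9 in WT and 48.2 and 46.4 in ΔCRE cells. The ΔCRE libraries were above both WT libraries at 6 and at 24 h. At 0 h the ratio was 38.4 and 30.8 in WT cells and 51.65 in the ΔCRE library. In the library labelled ΔCRE 0 h replicate 1 it was 8.81. The ratio was not tested, and in ΔCRE cells at 6 h it divides by NRP2 values of only 0.563 and 0.375 FPKM. NRP1 itself was at 36.3 and 33.0 FPKM in ΔCRE cells at 6 h, around the WT values (difference 0.03, 95% confidence interval -0.10 to 0.16, adjusted p = 0.797 by limma). At 24 h it was at 57.2 and 59.3, above 48.7 and 48.9 in WT cells (0.25, SE 0.0573, adjusted p = 0.0391 by limma), a call that was lost in 12 of 19 other fits of these libraries, among them each fit without a 24 h library (adjusted p 0.11 to 0.213).

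PGF, already low after stimulation, was lower still in ΔCRE cells. It was at 6.71 and 5.37 FPKM at 6 h against 8.74 and 8.72 in WT cells, and at 8.64 and 7.99 at 24 h against 12 and 11.5. The ΔCRE mean was 69.2% of the WT mean at 6 h and 70.8% at 24 h, with no overlap. The log2 difference by limma was -0.47 (SE 0.0925, adjusted p = 0.016) at 6 h and -0.45 (SE 0.0925, adjusted p = 0.0265) at 24 h. The 6 h call was lost without either WT 6 h replicate, without ΔCRE 6 h replicate 2 and in a fit of the 6 h libraries alone (adjusted p 0.0547 to 0.105). The 24 h call was lost without any 1 of the 4 libraries of 24 h or of the 2 WT libraries of 6 h, and with no filter (adjusted p 0.0516 to 0.174). At 0 h the ΔCRE library was at 25.5 FPKM, near 22.8 and 24.7 in WT cells (difference 0.10, adjusted p = 0.762 by limma). None of 55 tested features within 5 Mb was as low as PGF at 6 or 24 h.

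**Figure D5:**
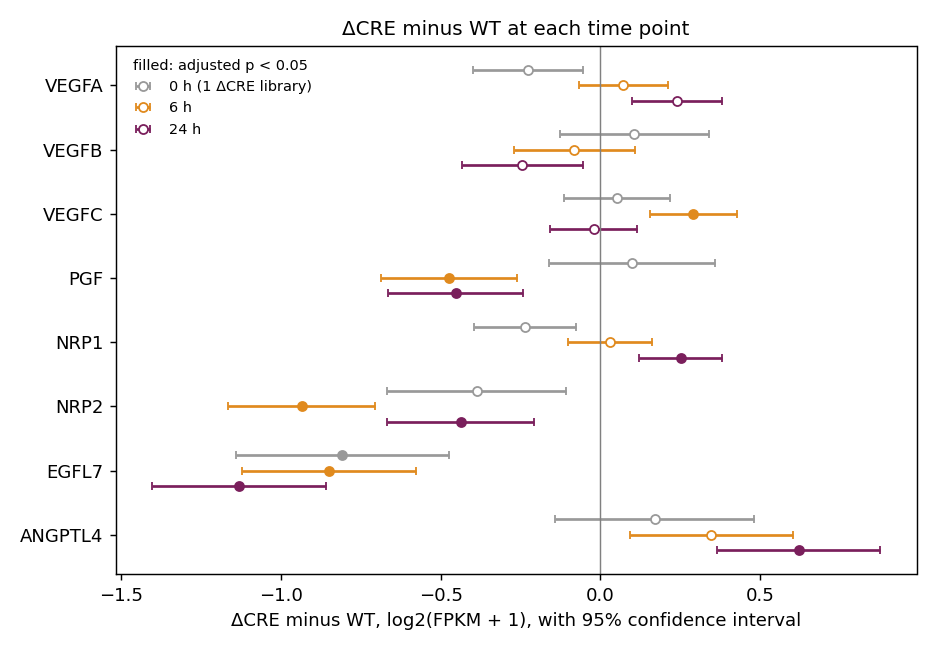
ΔCRE minus WT in log2(FPKM + 1) (x axis) for each gene at 0, 6 and 24 h, with 95% confidence intervals from limma; filled points have an adjusted p under 0.05, and the 0 h group holds 1 ΔCRE library. EGFL7 was at -0.81, -0.85 and -1.13, NRP2 and PGF were lower at 6 and 24 h, and ANGPTL4 and NRP1 were higher at 24 h.

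ANGPTL4 was the gene with the largest rise in ΔCRE cells among the 8. At 24 h it was at 19.5 and 19.7 FPKM in ΔCRE and at 13.8 and 11.2 in WT cells, so that the ΔCRE mean was 1.57 times the WT mean. The log2 difference was 0.62 (SE 0.111, adjusted p = 0.0159 by limma), and 80 of 11256 features had a higher difference. The call was lost without WT 24 h replicate 2 or either ΔCRE 24 h replicate. At 6 h the values were 11.6 and 10.1 against 9.07 and 7.63 FPKM, which did not overlap either, but the difference of 0.35 did not pass (adjusted p = 0.0949 by limma; 95% confidence interval 0.0923 to 0.601). None of 177 tested features within 5 Mb was as high as ANGPTL4 at 24 h.

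For the 3 VEGF genes the differences between genotypes were small. VEGFC was at 45.2 and 43.6 FPKM in ΔCRE cells at 6 h, above 34.6 and 37.7 in WT cells (0.29, SE 0.0592, adjusted p = 0.0191 by limma). That call was lost without WT 6 h replicate 1 (adjusted p = 0.141), without either ΔCRE 6 h replicate or in a fit of the 6 h libraries alone (0.0593 to 0.0873). At 24 h VEGFC was at 36.3 and 37.7 FPKM in ΔCRE cells, overlapping 38.1 and 37 in WT cells (difference -0.02, 95% confidence interval -0.16 to 0.11, adjusted p = 0.882 by limma). VEGFA was at 22.1 and 21.9 FPKM in ΔCRE cells at 6 h (difference 0.07, adjusted p = 0.538 by limma). At 24 h it was at 49.0 and 46.0, above 39.8 and 40.4 in WT cells, with a difference of 0.24 that missed the threshold (95% confidence interval 0.10 to 0.38, adjusted p = 0.0576 by limma) and passed it after quantile normalization (0.0411) or with a filter at 5 FPKM (0.0486). VEGFB was at 22.8 and 24.3 FPKM at 6 h and 23.6 and 22.1 at 24 h in ΔCRE cells, with differences of -0.08 (adjusted p = 0.612 by limma) and -0.24 (95% confidence interval -0.43 to -0.05, adjusted p = 0.133).

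Whether the response to PMA/Ionomycin differed between genotypes was tested directly. None of the 8 genes passed for the step from 0 to 6 h, which rests on 1 ΔCRE library at 0 h, where 0.267% of all features passed. An unadjusted p under 0.05 was found in 5 of the 8, as in 8.08% of all features. The widest differences were in PGF (-0.57, SE 0.146, adjusted p = 0.301 by limma) and NRP2 (-0.55, SE 0.159, adjusted p = 0.377). None passed either for the step from 6 to 24 h, where 0.16% of all features passed, and an unadjusted p under 0.05 was found in 3, as in 6.98% of all features. The widest values were in NRP2 (0.50, adjusted p = 0.441 by limma) and VEGFC (-0.31, adjusted p = 0.405). ETS1 passed in both (-0.67 with adjusted p = 0.0291 and 0.84 with adjusted p = 0.0247 by limma).

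The promoters of the 3 genes that were lower in ΔCRE cells at 6 and 24 h are shown because ETS1 is a transcription factor and these genes were lower in the same libraries. Sequences are from the RefSeq promoter table (GRCh38.p14), with 250 bases before and 50 after each start, and hold the same letters in GRCh37 (hg19) at the positions given. The table held 8 windows for 6 of the 8 genes and none matched VEGFA or NRP1. Both strands were searched for 3 motifs, which do not overlap in these windows. An ETS site was searched as CNGGAAG. An AP-1 site was searched as TGANTCA. The core of a hypoxia response element was searched as ACGTG. Matches are in capitals, and a match on the opposite strand is shown as its reverse complement.
EGFL7 upstream start, chr9:139553058-139553357, + strand: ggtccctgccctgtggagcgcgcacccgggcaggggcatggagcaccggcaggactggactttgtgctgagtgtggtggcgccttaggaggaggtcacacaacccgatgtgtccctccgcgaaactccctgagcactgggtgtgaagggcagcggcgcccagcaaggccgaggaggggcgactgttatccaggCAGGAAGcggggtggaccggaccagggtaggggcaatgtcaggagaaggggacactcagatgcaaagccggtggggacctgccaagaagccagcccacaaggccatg
EGFL7 downstream start, chr9:139557118-139557417, + strand: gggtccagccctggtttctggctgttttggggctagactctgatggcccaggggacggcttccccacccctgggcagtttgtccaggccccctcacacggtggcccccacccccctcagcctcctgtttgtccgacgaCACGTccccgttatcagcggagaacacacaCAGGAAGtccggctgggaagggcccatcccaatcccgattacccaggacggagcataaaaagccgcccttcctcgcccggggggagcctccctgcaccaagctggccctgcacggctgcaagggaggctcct
PGF, chr14:75422418-75422717, - strand: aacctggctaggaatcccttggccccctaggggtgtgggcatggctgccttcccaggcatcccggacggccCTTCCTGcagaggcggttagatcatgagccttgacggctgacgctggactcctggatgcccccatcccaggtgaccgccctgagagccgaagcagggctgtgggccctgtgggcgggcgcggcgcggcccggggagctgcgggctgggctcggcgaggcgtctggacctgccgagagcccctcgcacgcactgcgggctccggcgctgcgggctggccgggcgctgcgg
NRP2, chr2:206546975-206547274, + strand: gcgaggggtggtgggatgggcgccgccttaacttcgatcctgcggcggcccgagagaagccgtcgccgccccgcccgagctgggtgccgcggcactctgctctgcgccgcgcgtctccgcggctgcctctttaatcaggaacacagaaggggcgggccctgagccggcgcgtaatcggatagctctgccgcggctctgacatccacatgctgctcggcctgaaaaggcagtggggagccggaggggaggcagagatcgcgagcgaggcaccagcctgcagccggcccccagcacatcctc

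Both EGFL7 windows held the ETS letters, at 57 and 82 bases before their starts, and the downstream one also held the hypoxia letters, on the opposite strand, at 112 bases before it. The PGF window held the ETS letters, on the opposite strand, at 179 bases before the start, and its other window, which starts downstream and overlaps it, held no match. NRP2 had none of the 3 motifs in its window, and neither did VEGFB or VEGFC. ANGPTL4 had the hypoxia letters, on the opposite strand, at 234 bases before its start. Of 27305 promoter windows of 300 bases in the same table, a single window for each gene symbol, 34.0% held the ETS letters, 21.6% the hypoxia letters and 7.76% the AP-1 letters, so a match is common. For EGFL7 and PGF more than a single window was searched, which gives more room for a match than these shares.

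The wider set of vessel genes was then described by lists, whose counts are set beside the shares of all tested features that passed in the same comparison. Of 3 receptors and the remaining ligand VEGFD (listed as FIGF) only FIGF was tested; it was at 7.48 and 7.84 FPKM at 0 h and 4.16 and 4.14 at 6 h in WT cells and fell by 0.75 (adjusted p = 1.72e-04 by limma). At 24 h FIGF was at 7.60 and 6.99 FPKM (difference from 0 h -0.06, adjusted p = 0.541). None of 5 angiopoietins and TIE receptors and none of 6 other angiopoietin-like factors reached a mean of 1 FPKM, so ANGPTL4 was the one angiopoietin-like gene tested. Of 7 class 3 semaphorins, ligands of the neuropilins, 3 were tested. SEMA3A (0.86) and SEMA3C (0.85) rose at 6 h in WT cells and SEMA3A (0.98) remained higher at 24 h, while none of the 3 passed between genotypes. Over all features 23.3% rose at 6 h and 26.5% at 24 h. Of 4 tested plexins 2 rose at 6 h, PLXNA3 by 1.42 and PLXNA2 by 0.84. The other 2 fell, PLXND1 by 0.66 and PLXNA1 by 0.35 (44.4% of all features passed). At 24 h 1 was higher and 2 were lower (26.5% and 28.2% of all features). PLXNA2 was lower in ΔCRE cells at 6 h (-0.49, adjusted p = 0.0036 by limma) and was the 1 plexin that passed between genotypes at 6 h, where 6.22% of all features were lower, and none passed at 24 h.

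Of 20 tested genes of signalling downstream of VEGF receptors, 8 rose and 2 fell at 6 h in WT cells, where 23.3% of all features rose and 21.1% fell, with a median difference of 0.16 against 0.00 over all features. At 24 h 7 rose and 4 fell (26.5% and 28.2% of all features), with a median of 0.03 against -0.02. The leading one was SPHK1, sphingosine kinase, which rose by 2.42 at 6 h and also stood higher in ΔCRE cells (0.36 at 6 h, adjusted p = 0.0296, and 0.43 at 24 h, adjusted p = 0.0196, by limma). SH2D2A, an adaptor of VEGFR2, rose by 1.02 at 6 h and 2.30 at 24 h. Between genotypes 4 passed at 6 h (1 higher, 3 lower), among them PIK3CG (-0.64) and PIK3R1 (-0.52), subunits of phosphoinositide kinases, and 4 at 24 h (2 higher, 2 lower). VAV2, on chromosome 9 like EGFL7, was among those lower at both times (-0.35 and -0.35). The part of the shift around EGFL7 in the VAV2 difference was not tested. Of all features 9.83% passed at 6 h and 6.33% at 24 h. The median of the list was -0.04 at 6 h and 0.04 at 24 h, against 0.01 over all features at both times.

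Of 15 tested other angiogenic growth factors, 5 rose and 8 fell at 6 h in WT cells, and 6 rose and 7 fell at 24 h. Over all features 23.3% rose and 21.1% fell at 6 h, and 26.5% and 28.2% at 24 h. At 6 h IL8 rose by 9.26 and CXCL1, another chemokine, by 5.04, while CTGF, a matricellular protein, fell by 1.23. Between genotypes 3 were higher and 5 lower at 6 h, with a list median of -0.09 (9.83% of all features passed), and 2 were higher and 4 lower at 24 h, with a median of 0.00 (6.33% passed). ENG (endoglin), a TGFβ co-receptor, was lower in ΔCRE cells at both times (-1.08, adjusted p = 5.42e-05, and -0.86, adjusted p = 2.40e-04, by limma), EFNA1 was lower at 6 h (-0.96, adjusted p = 0.0023) and EFNB2 was higher at both (0.91, adjusted p = 4.89e-04, and 0.55, adjusted p = 0.00802). As EGFL7 does, ENG lies on chromosome 9, and the part of the shift around EGFL7 in the ENG difference was not tested. CXCL1 was lower at 24 h (-1.25, adjusted p = 0.00122 by limma) and so was IL8 (-0.73, adjusted p = 0.00305).

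Of 7 tested inhibitors of angiogenesis, 3 passed between genotypes at 6 h (1 higher, 2 lower), where 9.83% of all features did, and 4 at 24 h (2 higher, 2 lower), where 6.33% did. In WT cells 2 rose and 3 fell at each time, where 23.3% and 21.1% of all features did at 6 h and 26.5% and 28.2% at 24 h. TIMP3, an inhibitor of metalloproteinases that also blocks VEGF binding to its receptor, was higher (0.92 and 0.80), and SERPINF1 (PEDF; -0.58 and -0.76) and THBS1 (thrombospondin; -0.33 and -0.51) were lower.

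Of 14 tested hypoxia factors and targets, 5 passed between genotypes at 6 h (3 higher, 2 lower), against 9.83% of all features, and 3 at 24 h (2 higher, 1 lower), against 6.33%. BNIP3, a mitophagy receptor, was lower (-0.81 and -0.68), NDRG1 was lower at 6 h (-0.63), and ADM (0.52 at 6 h), P4HA1 (0.39 and 0.39) and EPAS1 (0.30 and 0.28) were higher. In WT cells 4 of the 14 rose and 5 fell at 6 h (23.3% and 21.1% of all features), and 8 rose and 3 fell at 24 h (26.5% and 28.2%), with NDRG1 (2.59), BNIP3 (1.39) and PFKFB4 (1.36) among those that rose. Of 8 tested PPAR factors and targets, 1 was higher and 2 were lower in ΔCRE cells at each of 6 and 24 h. In WT cells 3 rose and 3 fell at 6 h and 4 rose and 4 fell at 24 h. The shares of all features are those given above for the hypoxia list. PLIN2, a lipid droplet protein, was higher in ΔCRE cells (0.43 and 0.44). RXRA, the partner of PPARs (-0.41 and -0.42), and ACADVL (-0.33 and -0.35) were lower, and PPARG fell by 1.02 at 6 h in WT cells. RXRA lies on chromosome 9, as EGFL7 does, and the part of the shift around EGFL7 in its difference was not tested. The list values given with no p are differences of log2(FPKM + 1) with an adjusted p under 0.05.

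Profiles over the 11 libraries were last compared with those of the 11255 other tested features by Pearson's r of log2(FPKM + 1), as a description over points that share genotype and time. VEGFA was closest to PTPRR (0.99), MMP1 (0.99) and CTSL1 (0.99), VEGFC to HDAC9 (0.99), OPTN (0.99) and JUNB (0.99), and PGF to DNAH2 (0.99), SGK223 (0.99) and IFFO2 (0.99). NRP1 was closest to BLVRA, MUT and ZMYND8 (0.97 each), NRP2 to DLG4 (0.97), C17orf51 (0.97) and CD40 (0.96), and ANGPTL4 to ANXA10 (0.97), MRAS (0.96) and DUSP6 (0.96). EGFL7 was closest to DENND1A (0.98), IGFBP2 (0.97) and a feature that names both GPSM3 and NOTCH4 (0.97). VEGFB, the flattest of the ligands, had no profile above 0.89, with MPST (0.89), NPFF (0.88) and MAPK12 (0.85) nearest. Among the 8 genes themselves the closest pair was NRP2 and EGFL7 (0.87), ANGPTL4 followed NRP1 (0.85) and VEGFA (0.82), and VEGFC and PGF ran opposite (-0.94).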

How the data were processed

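RNA-sequencing libraries of WT and ΔCRE MDA-MB-231 cells (12 libraries, 6 groups of 2) were grouped by genotype, time and replicate number as labelled. Reads of stranded mRNA were aligned by the authors to hg19 (TopHat 2.0.12), and the deposited values are FPKM from Cufflinks 2.2.1. The gene annotation, any scaling between libraries, the use of strand and the depth are not given in the sources used here, so no counting interval could be computed. Replicates are described as biological.

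From the deposited FPKM, log2(FPKM + 1) was fitted with limma 3.58.1 in R 4.3.3 (6-group model, eBayes with trend) over 11 libraries and 11256 features, those averaging 1 FPKM or more, with Benjamini-Hochberg adjustment over all of them. Genes were called at an adjusted p under 0.05. On simulated data with 200 of 11256 features changed by a log2 value of 1, 95% were recovered for ΔCRE minus WT at 6 h and 94% at 24 h, and 3.06% and 2.59% of the calls were false. The simulated noise was drawn independently for each value from the fitted spread. Smaller changes were not simulated, so these shares do not cover the smaller differences given above, such as those of NRP1 and VEGFC. Python 3.11.15 with pandas 2.3.3 did the rest. The fits were repeated with a pseudocount of 0.1, unfiltered, filtered at 5 FPKM, after quantile normalization or conversion to TPM, on all 12 libraries, with a replicate block, with no eBayes trend, per comparison and without each library in turn.

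The genes and lists were chosen with earlier results of these data known. Named genes are the 8 genes, ETS1, the 3 features closest in profile to each, the receptors FLT1, KDR and FLT4, and up to the 3 widest called differences per list and comparison. Cell type markers (VIM, ESR1, PGR, ERBB2, KRT8, KRT18, KRT19, EPCAM, CDH1, ESAM, PECAM1, CDH5 and VWF) come from a separate marker list. AGPAT2 was named for its position after its values were seen. 2 column names carry a digit where the others have a letter (ΔCRE 0 h and 6 h replicate 2) and were matched through the remaining labels. 405 features name several genes.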

Additional observations from a re-analysis of the deposited data

Results flagged for a closer look

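The library labelled ΔCRE 0 h replicate 1, which was left out of the 11-library fits, held 3 of the genes at a level above all 11 other libraries. VEGFB was at 63.0 FPKM in it, against 21.7 to 29.1 elsewhere. PGF was at 28.7 FPKM, against 5.37 to 25.5, and EGFL7 at 43.9 FPKM, against 8.88 to 34.1. NRP1 (11.1 FPKM) and VEGFC (5.38 FPKM) lay below all 11 others. Its FPKM sum was 1423335, against 566255 to 651080 elsewhere, and after rescaling to TPM none of the 3 lay above the others: VEGFB was at 44.3 TPM (35.0 to 49.3 in the other 11), PGF at 20.2 TPM (8.61 to 44.2) and EGFL7 at 30.8 TPM (14.2 to 57.7). This library also held 7058 FPKM of gut epithelium markers and 17.3 FPKM of endothelial markers in sum, and their part in these values was not tested.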

How the results depend on the processing

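The fits share 11 libraries and 1 estimate of the spread, 2 libraries per group leave little to measure it, and NRP2 lies at the lower end of the tested range. EGFL7 at 6 and 24 h and NRP2 at 6 h stayed called between genotypes in every alternative that used these 11 libraries or left 1 of them out (NRP2 could not be tested with a filter at 5 FPKM), and in none with all 12. With all 12 libraries 0 of the 8 genes were called for genotype at 0, 6 and 24 h, 2 for WT 6 h minus 0 h, 3 for WT 24 h minus 0 h, 0 for WT 24 h minus 6 h and 0 for ΔCRE 24 h minus 6 h, and 17, 20, 17, 857, 1221, 582 and 845 of all features were, with 4 and 0 for the differences between genotypes in the 6 h minus 0 h and 24 h minus 6 h steps. The fits per time point gave 2 calls at 6 h and 3 at 24 h (717 and 324 over all features, against 1107 and 712). TPM gave 3 at 24 h, and no filter gave 0 at 0 h and 47 features, against 30, for the genotype difference in 6 h minus 0 h. Leaving out 1 library gave 0 to 1 calls at 0 h, 2 to 4 at 6 h, 1 to 5 at 24 h, 3 to 5 for WT 6 h minus 0 h, 7 to 8 for WT 24 h minus 0 h and 4 to 5 for WT 24 h minus 6 h, with 106 to 159, 321 to 1097 and 165 to 717 features at 0, 6 and 24 h and 3 to 21 for the genotype difference in 24 h minus 6 h, against 190, 1107, 712 and 18. TPM shifted the median of all features by -0.12 for WT 6 h minus 0 h, where calls went from 2620 higher and 2373 lower to 1894 and 3513, for WT 24 h minus 6 h from 2303 and 2964 to 3208 and 1780, for ΔCRE 24 h minus 6 h from 2489 and 3097 to 3219 and 2082, and for ΔCRE minus WT at 24 h from 265 and 447 to 180 and 548. Apart from the fits named here and beside the results, the cause of a lost call was not tested.

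The sign turned in these values. With all 12 libraries, ΔCRE minus WT at 0 h was 0.45 for VEGFA, -0.0357 for VEGFC and 0.21 for EGFL7, and the genotype difference in 6 h minus 0 h was -0.38 for VEGFA and -0.20 for ANGPTL4. Under quantile normalization NRP2 was -0.00799 for WT 24 h minus 6 h, VEGFB 0.0476 for ΔCRE 24 h minus 6 h (0.0574 under TPM) and PGF -0.0188 for the genotype difference in 24 h minus 6 h. Over the fits without 1 library, ΔCRE minus WT ranged from -0.0362 to 0.0971 for NRP1 at 6 h and from -0.0496 to 0.0067 for VEGFC at 24 h, and WT 6 h minus 0 h from -0.19 to 0.0636 for EGFL7 and from -0.15 to 0.0721 for ANGPTL4. WT 24 h minus 6 h ranged from -0.00624 to 0.12 for VEGFC, and ΔCRE 24 h minus 6 h from -0.0836 to 0.00474 for VEGFB. The genotype difference in 6 h minus 0 h ranged from -0.17 to 0.0849 for EGFL7, and that in 24 h minus 6 h from -0.12 to 0.16 for PGF. All of these had an adjusted p over 0.05 by limma, and of their counterparts with 11 libraries EGFL7 at 0 h alone was called.

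The replicate numbers were not taken to pair the samples: the correlation of same-numbered deviations lay between -0.07 and 0.20 over 10 pairs of groups. With the replicate number as a block the genotype calls were 655 at 0 h (190 without it), 1805 at 6 h (1107) and 1407 at 24 h (712), with 72 (30) for the genotype difference in 6 h minus 0 h. Among the 8 genes ANGPTL4 at 6 h (0.35, adjusted p = 0.0233 by limma) and VEGFA at 24 h (0.24, adjusted p = 0.0316) passed under the block and no call was lost.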
